A study of Mus musculus with 18 samples.

Results

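MHC class II molecules are cell surface proteins that show peptides from taken-up material to CD4+ T cells. They are made mostly by antigen-presenting cells, namely dendritic cells, macrophages and B cells, and such cells reside in liver, adipose tissue and muscle. An alpha and a beta chain pair in the endoplasmic reticulum with the invariant chain Cd74, which fills the peptide groove and guides the complex to endosomes. Proteases degrade Cd74 there, and H2-DM, a dimer of H2-DMa and H2-DMb1, exchanges its last fragment for a peptide. Ciita is the coactivator that switches on transcription of these genes, and interferon gamma is its best known inducer.

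The 7 genes described here are H2-Aa and H2-Ab1, the alpha and beta chains of the I-A molecule, H2-Eb1, the beta chain of I-E, H2-DMa, H2-DMb1, Cd74 and Ciita. They were chosen by name from the 21899 genes of the expression table, and all 7 were listed there. The mice were wild type C57BL/6 at 18 weeks of age. HSD mice were fed a high-salt diet for 12 weeks, with saline as drinking water in the study's methods, whereas CON mice received chow and tap water. RNA-seq was performed on bulk liver, epididymal white adipose tissue (eWAT) and quadriceps muscle, with 3 CON and 3 HSD libraries of each tissue and 18 libraries in all. C57BL/6 mice carry a defect in the I-E alpha chain gene, so H2-Eb1 is measured here as an RNA in mice that do not make the I-E molecule.

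Expression was given as FPKM, fragments scaled by the exon length of the gene and the total of the library. A comparison between genes therefore depends on the exon length taken for each. Library totals recovered from these values ranged from 7628071 to 16637488 fragments, and a gene of the 7 had between 4 fragments (Ciita in a liver library) and 8373 fragments (Cd74 in an eWAT library). In each tissue its own markers were the highest of the hepatocyte, adipocyte and skeletal muscle lists, except that eWAT HSD replicate 2 also had a summed FPKM of 23920 for 10 epididymal epithelium markers, against 1.10 to 13.8 in the other eWAT libraries. Its adipocyte marker sum was 7258 FPKM, against 17174 to 23629 in the others. Liver CON replicate 2 had a summed skeletal muscle marker FPKM of 4647, against 1.78 to 4.44 in the other liver libraries. The share of fragments on mitochondrially encoded genes was 15.4% to 60.9% in liver, with the highest share in liver CON replicate 1. Some fold changes and counts of called genes are also given without these libraries. Group values of markers and pathway genes, and correlations, include them.

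On mm10, 5 of the 7 genes lie within 197 kb of chromosome 17. H2-DMa is at chr17:34119541-34139101, H2-DMb1 at chr17:34153072-34160230, H2-Ab1 at chr17:34257689-34269419 and H2-Eb1 at chr17:34305867-34316674, all on the plus strand, and H2-Aa is at chr17:34282744-34287823 on the minus strand. H2-DMa shares 360 exon bases, or 10.4% of its exon length, with Brd2 on the opposite strand, and whether counting used strand is not given in the sources used here. H2-DMb1 shares 11.3% of its 100-base transcript windows with its near copy H2-DMb2, so reads of these windows could be assigned to either gene.

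Class II promoters are known for an X box, bound by the RFX complex, and a Y box, bound by NF-Y, at a fixed spacing, and Ciita is recruited to the factors on them. The following stretches upstream of H2-Aa, H2-Eb1 and H2-Ob, a chain of the H2-O inhibitor of H2-DM, are shown because all 3 hold the same pair of letter strings on the gene's strand. They are from RefSeq on GRCm38.p6, 5′ to 3′, at chr17:34287855-34287919 (minus strand), chr17:34305761-34305824 (plus) and chr17:34238803-34238864 (plus), and the capitals mark a match to CTNGNAAC and then to ATTGG.
H2-Aa: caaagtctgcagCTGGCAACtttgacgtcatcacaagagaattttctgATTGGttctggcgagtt
H2-Eb1: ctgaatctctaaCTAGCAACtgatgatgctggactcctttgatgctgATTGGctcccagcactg
H2-Ob: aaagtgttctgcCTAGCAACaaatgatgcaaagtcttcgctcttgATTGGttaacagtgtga
From the first base of one string to the first base of the other there are 36 bases in H2-Aa, 35 in H2-Eb1 and 33 in H2-Ob. H2-DMb1 held the pair as well, at 36 bases. Among 32851 promoter windows of 300 bases, searched on both strands, 106 (0.323%) held CTNGNAAC followed after 20 to 45 bases by ATTGG, whereas 13.2% held the first string alone and 37.4% the second. The strings do not overlap in these windows and were chosen with the sequences in view. The pair was not found in the windows of H2-DMa, H2-DMb2, H2-Oa and H2-Eb2. H2-Ab1, Cd74 and Ciita were not analysed here.

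All 7 genes were highest in eWAT, in both diet groups. Among them are Cd74 (chr18:60803848-60812652) and Ciita (chr16:10480059-10528418), which lie on the plus strand outside the class II region of chromosome 17. In CON eWAT, Cd74 was measured at 311, 248 and 288 FPKM, which ranked it 100th of 17587 genes above 0 by mean FPKM. H2-Eb1 was at 152, 127 and 148 FPKM, H2-Ab1 at 110, 91.3 and 108, and H2-Aa at 87.8, 73.3 and 83.1. The dimer that loads peptides was much lower, with H2-DMb1 at 18.3, 13.2 and 15.6 FPKM and H2-DMa at 9.42, 6.37 and 7.74, and Ciita had 1.41, 1.37 and 1.44 FPKM. Thus, in CON eWAT, the order of mean FPKM was Cd74, H2-Eb1, H2-Ab1, H2-Aa, H2-DMb1, H2-DMa and Ciita. The lowest library of each gene was above the highest of the next, so no neighbours in this order overlapped. The order depends on the exon lengths used, such as 3798 bases for H2-Aa and 1944 for H2-Eb1. In fragments, H2-Aa had 5348, 4217 and 5248 in these libraries and H2-Eb1 4736, 3737 and 4802.

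**Figure D1:**
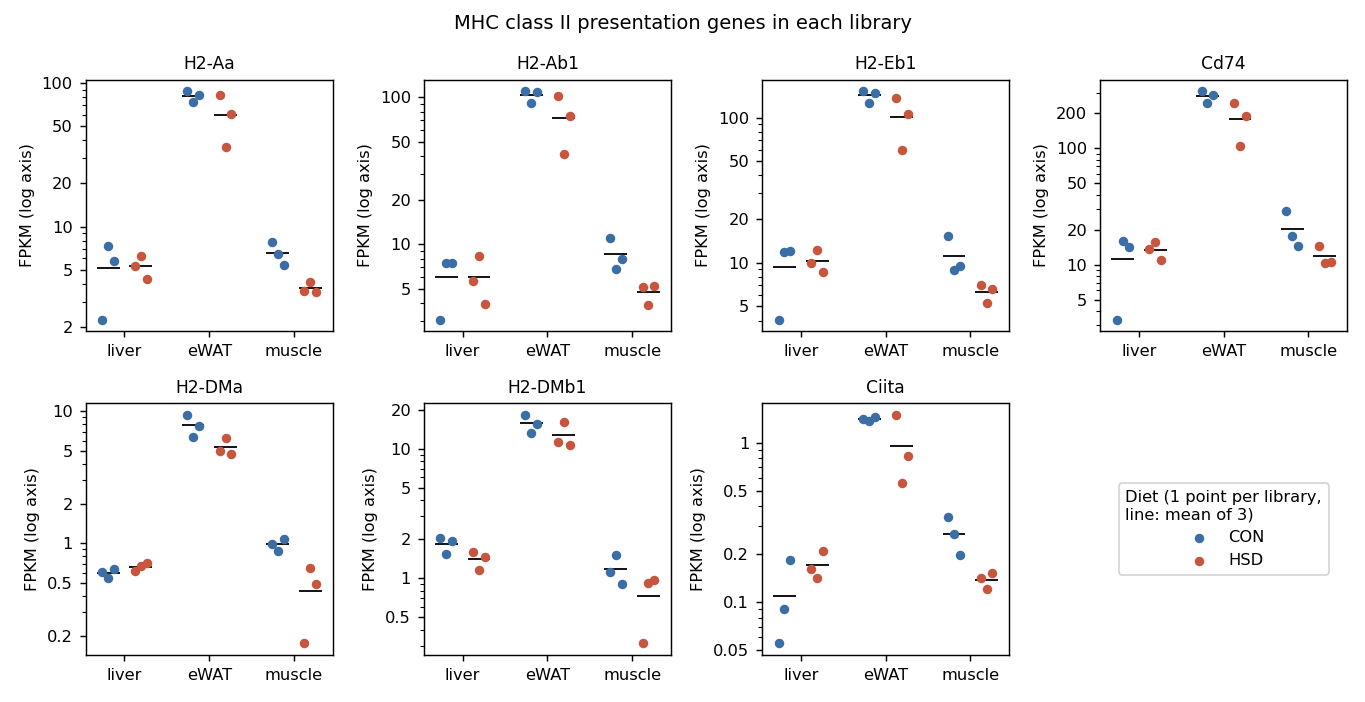
FPKM (log axis) of the 7 class II genes in each of the 18 libraries, by tissue and diet, with CON in blue, HSD in red and a line at the mean of 3. Every eWAT library is above every liver and muscle library of the same diet for each gene, and in muscle the HSD points are below the CON points for all but H2-DMb1.

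Compared with CON liver, the mean FPKM in CON eWAT was 25.1-fold higher for Cd74, 17.2-fold for H2-Ab1, 15.9-fold for H2-Aa, 15.3-fold for H2-Eb1, 13.1-fold for H2-DMa, 12.9-fold for Ciita and 8.52-fold for H2-DMb1. Compared with CON muscle, it was between 5.26-fold higher (Ciita) and 13.8-fold higher (Cd74). In HSD mice the lowest eWAT library was still 2.66-fold (Ciita) to 6.69-fold (H2-DMa) above the highest library of either other tissue. In limma's test on log2(FPKM + 0.5) over all 18 libraries, with p-values adjusted by Benjamini-Hochberg and calls made at adjusted p under 0.05 with log2 fold changes of 1 or more in size, all 7 were called higher in eWAT in all 4 comparisons. For CON mice their log2 fold changes over liver were 1.65 (SE 0.21) for Ciita to 4.84 (SE 0.46) for Cd74, with adjusted p from 1.48e-09 to 2.76e-06. The added 0.5 makes the change of Ciita smaller than its ratio of means, as its mean in CON liver was 0.110 FPKM. Many genes were called in these comparisons. For eWAT over liver and over muscle, 60.4% and 45.4% of all genes tested were called higher in CON mice, and 61.8% and 52.0% in HSD mice. The median log2 fold change in CON mice was 3.99 for the 7 genes and 1.33 for all genes over liver, and 3.53 and 0.91 over muscle. When libraries were scaled by median ratios, the median of all genes over liver became 0.01 and the split of calls in CON mice went from 7892 higher and 917 lower to 2643 and 2572 (5490 and 1432 with mitochondrially encoded genes left out), while all 6 of the genes that remained above the filter were called higher with a median of 2.42. The same scaling changed the split over muscle from 5935 higher and 1025 lower to 2508 and 2228. In HSD mice the splits were 8081 and 934 over liver and 6792 and 966 over muscle, and 2790 and 2734 and 2614 and 2453 under the scaling.

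Liver and muscle were close to each other. CON muscle had higher means than CON liver for 6 of the 7 genes, with H2-DMb1 as the exception, although the fold change of liver over muscle turned to 0.15, 0.049 and 0.27 on the log2 scale for H2-Aa, H2-Ab1 and H2-Eb1 under median-ratio scaling, whereas HSD liver had higher means than HSD muscle for all 7. None of the 7 was called between liver and muscle in either diet group by limma, where 48.4% of all genes were called in CON mice and 46.0% in HSD mice. With an unadjusted p under 0.05, 2 of 7 were lower in liver in CON mice (H2-DMa and Cd74, with 49.0% of all genes) and 1 of 7 was higher in liver in HSD mice (H2-DMb1, with 23.5% of all genes). The largest difference was that of Cd74 in CON mice, with a log2 fold change of -1.03 (SE 0.46, adjusted p = 0.0572) for liver over muscle, and it became -0.36 without liver CON replicate 1. It was called without liver CON replicate 2 (-1.41, adjusted p = 0.0153), without liver CON replicate 3 (-1.33, 0.0317) and without muscle CON replicate 3 (-1.24, 0.0477). H2-DMb1 was called higher in liver of both diet groups by median-ratio scaling, with log2 fold changes of 1.05 in CON and 1.07 in HSD mice. Over all genes that scaling changed the split of liver over muscle from 1889 higher and 4435 lower to 2958 and 3084 in CON mice, and from 2142 and 3867 to 2966 and 3130 in HSD mice. In CON mice it was 2864 and 3229 when mitochondrially encoded genes were not used.

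The study asked how HSD changes gene expression in metabolic tissues. In muscle, the class II genes had lower FPKM in HSD mice than in CON mice. H2-Aa was at 7.85, 6.42 and 5.37 FPKM in CON mice and at 3.54, 4.10 and 3.48 FPKM in HSD mice. H2-Ab1 was at 11.1, 6.77 and 7.94 FPKM in CON and 5.15, 3.84 and 5.18 in HSD mice. H2-Eb1 was at 15.2, 8.86 and 9.43 FPKM in CON and 7.07, 5.27 and 6.55 in HSD mice. For these 3 chains all HSD libraries were below all CON libraries, and replicate 1 was the highest of the CON group. Cd74 was at 29.0, 17.8 and 14.4 FPKM in CON and 14.4, 10.4 and 10.6 in HSD mice. Its highest HSD library was just below its lowest CON library. H2-DMa was at 0.985, 0.882 and 1.09 FPKM in CON and 0.174, 0.648 and 0.491 in HSD mice, and the lowest of these values rested on 8 fragments. H2-DMb1 was at 1.12, 1.51 and 0.904 FPKM in CON and 0.313, 0.916 and 0.959 in HSD mice, so its groups overlapped. Ciita was at 0.340, 0.266 and 0.197 FPKM in CON and 0.142, 0.121 and 0.152 in HSD mice, on 15 to 43 fragments, which is below the mean FPKM of 0.5 needed for the test.

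In muscle every HSD library was below every CON library for 6 of the 7 genes, among them Ciita, which was not tested. This was so for 15.6% of all genes tested, a share that leaves out genes under the filter such as Ciita. The summed FPKM of the 7 genes was 49.2 ± 14.3 (SD, n = 3) in CON and 27.8 ± 2.79 (SD, n = 3) in HSD mice, or 43.4% lower. The log2 fold changes in the limma test of muscle alone were -0.73 (SE 0.15) for H2-Aa, -0.79 (SE 0.19) for H2-Ab1, -0.75 (SE 0.20) for H2-Eb1, -0.72 (SE 0.24) for Cd74, -0.70 (SE 0.20) for H2-DMa and -0.48 (SE 0.24) for H2-DMb1. The median of these 6 was -0.73 and that of all 10834 genes tested was -0.06. None of the 6 was called, with adjusted p of 0.0613 for H2-Aa, 0.0906 for H2-Ab1, 0.112 for H2-Eb1, 0.142 for H2-DMa, 0.178 for Cd74 and 0.356 for H2-DMb1, while 0.222% of all genes were called lower. The unadjusted p was under 0.05 for 5 of the 6, and 12.0% of all genes were lower at that level.

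CON and HSD libraries came from different mice, and the labels give no pairing between them. In muscle, deviations from group means of libraries with the same replicate number correlated at 0.383, 0.177 and 0.184. With that number as a block in the limma fit, the adjusted p was 0.0225 for H2-Ab1, 0.0300 for H2-Eb1, 0.0305 for Cd74 and 0.0332 for H2-Aa. All were at fold changes too small for a call. At the adjusted p alone, 4 of 6 passed as lower with the block, compared with 1.98% of all genes, and 0 of 6 passed without it, compared with 0.665%. The block was picked for muscle from these same correlations and joins mice that no label pairs. Its p-values therefore cannot decide whether these genes were lower. Over all genes, calls went from 35 (11 higher and 24 lower) to 54 with the block. Under median-ratio scaling they were 13 higher and 14 lower, and the 6 genes kept negative fold changes with a median of -0.65. Without muscle CON replicate 1, the fold changes were between -0.44 (Cd74) and -0.69 (H2-DMa).

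**Figure D2:**
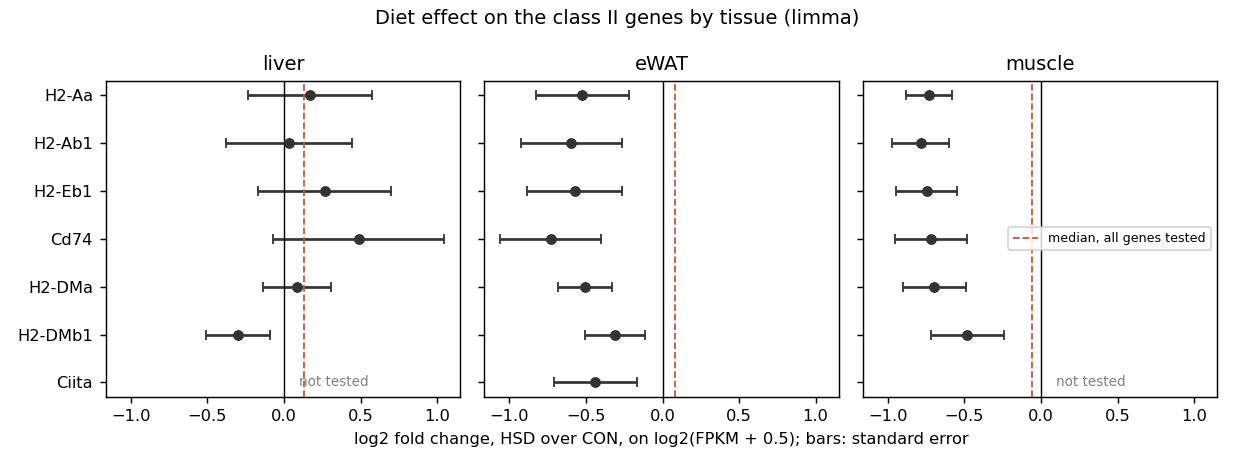
Log2 fold change of HSD over CON for each class II gene in liver, eWAT and muscle, from limma on log2(FPKM + 0.5), with bars of 1 standard error. The dashed line is the median of all genes tested (0.13 in liver, 0.08 in eWAT and -0.06 in muscle), and all genes tested in eWAT and muscle lie left of it.

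Markers of macrophages and of leukocytes in general had lower sums in the same muscle libraries. The summed FPKM of 13 macrophage markers was 71.2 to 103 in CON and 48.8 to 58.8 in HSD mice. Of 11 of these markers tested 10 had negative fold changes, as had 60.8% of all genes. C1qa, a subunit of complement C1q made by macrophages, was called lower (log2 fold change -1.07, SE 0.15, adjusted p = 0.0213). Marco was at 0 in all 6 libraries. The general leukocyte markers without Cd52 summed to 5.33 ± 1.38 (SD, n = 3) FPKM in CON and 2.84 ± 0.27 (SD, n = 3) in HSD mice. Of 10 T and NK cell markers only Cd3e, a chain of the T cell receptor complex, was above the filter. It was at 1.02 ± 0.13 (SD, n = 3) FPKM in CON and 0.306 ± 0.095 in HSD mice (log2 fold change -0.92, SE 0.16, adjusted p = 0.0368) and made up most of the CON sum of that list, 1.32 ± 0.17 FPKM, against 0.583 ± 0.31 in HSD mice, while Cd3d of the same complex was at 0 to 0.099 FPKM over the 6 libraries. Of 10 markers of the muscle fibres themselves, 5 had positive and 5 negative fold changes, Myh1 alone was called (-1.01, SE 0.19, adjusted p = 0.0453), and their sums overlapped between diets. The 10 dendritic cell markers summed to 5.49 to 8.25 FPKM over the muscle libraries, with the dendritic cell receptor Flt3 at 0 to 0.208 FPKM. The 10 B cell markers summed to 0.325 to 1.27 FPKM. Sums of both lists overlapped between diets. Relative to the macrophage sum, the 7 genes stood at 0.541 ± 0.131 in CON and 0.524 ± 0.082 in HSD mice (SD, n = 3), with overlapping values. In bulk tissue, fewer cells of a type and less RNA per cell cannot be told apart, and the part of these cells in the result was not tested.

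**Figure D3:**
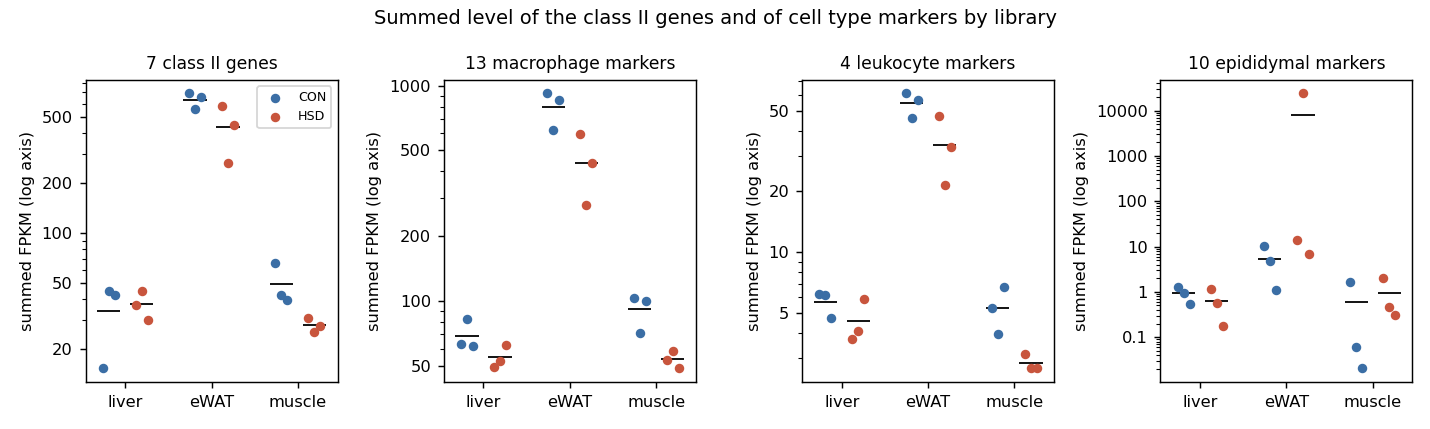
Summed FPKM (log axis) of the 7 class II genes, of 13 macrophage markers, of 4 general leukocyte markers (without Cd52) and of 10 epididymal epithelium markers in each library, with CON in blue, HSD in red and a line at the mean of 3. In muscle the HSD points are below the CON points in the first 3 panels, and 1 eWAT HSD library is at 23920 in the last.

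In eWAT, the tissue with the highest class II levels, all 7 genes had lower means in HSD mice, but HSD libraries differed widely. H2-Ab1 was at 110, 91.3 and 108 FPKM in CON mice and at 102, 41.3 and 74.8 in HSD mice. Cd74 was at 311, 248 and 288 FPKM in CON and 244, 104 and 190 in HSD mice, and Ciita at 1.41, 1.37 and 1.44 in CON and 1.49, 0.554 and 0.826 in HSD mice. The lowest value of the HSD group was in each case replicate 2, the library with the epididymal markers. H2-DMa and H2-DMb1 went another way in this library. H2-DMa was at 9.42, 6.37 and 7.74 FPKM in CON and at 4.97, 6.30 and 4.77 in HSD mice, and H2-DMb1 at 18.3, 13.2 and 15.6 in CON and 11.2, 16.1 and 10.6 in HSD mice, so that replicate 2 was the highest of its group for both subunits. The ratio of H2-DMb1 to H2-Ab1 was 0.390 in this library, against 0.110 to 0.166 in the 5 others.

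The eWAT log2 fold changes in limma were -0.73 (SE 0.33) for Cd74, -0.59 (SE 0.33) for H2-Ab1, -0.57 (SE 0.31) for H2-Eb1, -0.52 (SE 0.31) for H2-Aa, -0.51 (SE 0.18) for H2-DMa, -0.44 (SE 0.27) for Ciita and -0.31 (SE 0.20) for H2-DMb1. None was called, at adjusted p of 0.249 (H2-DMa) to 0.452 (H2-DMb1), and among all 13740 genes 0% were called. With an unadjusted p under 0.05, limma had 1 of the 7, H2-DMa, and 7.55% of all genes were lower at that level. Every HSD library was below every CON library for H2-DMa and Cd74, and 12.4% of all genes were so. Without HSD replicate 2, the fold changes of Cd74, H2-Ab1, H2-Eb1, H2-Aa and Ciita were -0.38, -0.24, -0.24, -0.20 and -0.23, whereas those of H2-DMa and H2-DMb1 were -0.62 (adjusted p = 0.0705) and -0.49 (adjusted p = 0.0875). Without it 160 genes were called over all genes, and none of the 7, and H2-DMa, H2-DMb1 and Cd74 had an unadjusted p under 0.05, where 12.5% of all genes were lower. Without HSD replicate 1, the library with the highest chain and Cd74 levels of its group, the fold changes were -0.99 for Cd74, -0.88 for H2-Ab1, -0.83 for H2-Eb1, -0.80 for H2-Aa, -0.69 for Ciita, -0.46 for H2-DMa and -0.24 for H2-DMb1. The first 5 of these had an unadjusted p under 0.05, where 7.48% of all genes were lower, and none of the 7 was called.

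Macrophage markers moved with these values too. Their sum was 625 to 920 FPKM in CON and 281 to 596 in HSD eWAT, with 281 in replicate 2, and 11 of 12 tested had negative fold changes without any call. The largest were those of Lyz2, a lysozyme of macrophages (-1.11, SE 0.34, adjusted p = 0.217), and Adgre1, which encodes F4/80 (-0.94, SE 0.35, adjusted p = 0.273). Relative to that sum the 7 genes were higher in HSD eWAT, at 0.981 ± 0.042 against 0.803 ± 0.080 (SD, n = 3), without overlap. Itgax, an integrin of dendritic cells and some adipose macrophages, was at 2.35 to 2.82 FPKM in CON and 0.891 to 2.29 in HSD mice. Flt3 was at 0.148 to 0.427 FPKM in all eWAT libraries. The list of 10 dendritic cell markers that holds both summed to 40.2 to 49.4 FPKM in CON and 20.8 to 46.0 in HSD eWAT. Of 8 of these markers tested, 7 had negative fold changes, as had 40.9% of all genes, and none was called. The part of these cells in the result was not tested.

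**Figure D4:**
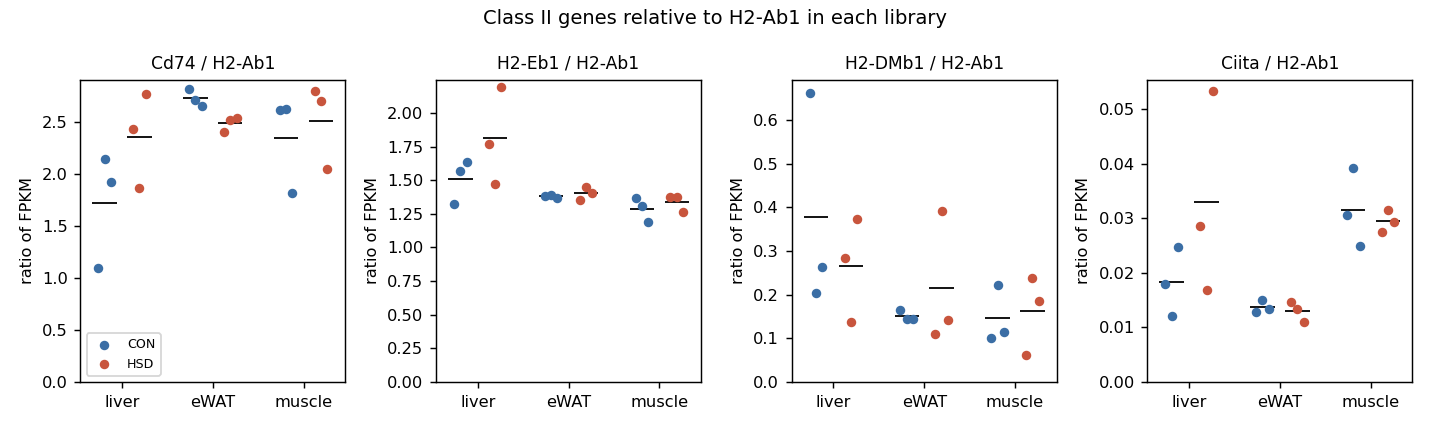
FPKM of Cd74, H2-Eb1, H2-DMb1 and Ciita divided by FPKM of H2-Ab1 in each library, by tissue and diet, with CON in blue, HSD in red and a line at the mean of 3. The ratios of H2-Eb1 lie between 1.35 and 1.45 in all eWAT libraries, and 1 HSD eWAT library is at 0.390 for H2-DMb1.

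In liver, the values of all 7 class II genes overlapped between the diets, while every HSD library was below every CON library for 3.47% of all genes and above for 8.62%. Cd74 was at 3.36, 16.1 and 14.3 FPKM in CON and at 13.7, 15.6 and 10.9 in HSD mice. H2-Aa was at 2.24, 7.36 and 5.76 FPKM in CON and 5.36, 6.29 and 4.34 in HSD mice. CON replicate 1, the library with the highest mitochondrial share, was the lowest of all 6 for both, and also for H2-Ab1 (3.06 FPKM) and H2-Eb1 (4.05 FPKM), but it was the highest for H2-DMb1 (2.03 FPKM). H2-DMa was within 0.549 to 0.713 FPKM in all 6 libraries, on 16 to 24 fragments, and Ciita was at 0.055 to 0.209 FPKM on 4 to 17 fragments and not tested.

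The limma fold changes in liver were 0.49 (SE 0.56) for Cd74, 0.27 (SE 0.43) for H2-Eb1, 0.17 (SE 0.41) for H2-Aa, 0.09 (SE 0.22) for H2-DMa, 0.03 (SE 0.41) for H2-Ab1 and -0.30 (SE 0.21) for H2-DMb1. None of these 6 was called, with adjusted p of 0.764 to 0.982, and among all 10317 genes 0% were called, with 0 of the 6 and 5.74% of all genes at an unadjusted p under 0.05. Without CON replicate 1 the signs of the chains and Cd74 turned, at -0.28 (H2-Aa), -0.35 (H2-Ab1), -0.22 (H2-Eb1) and -0.19 (Cd74). Without CON replicate 2, the library with the skeletal muscle markers, Cd74 was at 0.87 and H2-Aa at 0.48, and no gene of the 6 was called. Macrophage markers summed to 62.0 to 82.1 FPKM in CON and 49.3 to 62.3 in HSD liver. Of 11 tested, 8 had negative fold changes, as had 37.3% of all genes, and none was called. Their median was -0.75, against 0.13 for the class II genes, of which 1 of 6 had a negative fold change. The part of the macrophage markers in the result was not tested. Of the other genes of the pathway in liver, Ctsl, cathepsin L, had the largest fold change (1.31, SE 0.77, adjusted p = 0.764).

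The diet effect was also compared between tissues, as an interaction in the fit of 18 libraries. For eWAT against muscle the differences of the 7 genes were between -0.18 (Ciita) and 0.21 (H2-Aa) on the log2 scale, with adjusted p of at least 0.896, and 0% of all genes were called. For liver against muscle they were 0.18 (H2-DMb1) to 1.21 (Cd74), and H2-DMa had the smallest adjusted p (0.78, SE 0.26, adjusted p = 0.421), where 0.0612% of all genes were called. For eWAT against liver they were -0.01 (H2-DMb1) to -1.22 (Cd74), with adjusted p of at least 0.334, where 0.758% were called. None of the 7 was called in these 3 comparisons by limma, and H2-DMa alone had an unadjusted p under 0.05, for liver against muscle (higher, with 6.69% of all genes) and for eWAT against liver (lower, with 7.87%). The diet effect of the class II genes was therefore not shown to differ between tissues.

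Cd74 and the 3 chains varied most closely together. Over the 18 libraries, Pearson's r of log2(FPKM + 0.5) between pairs of these 4 genes was 0.990 to 0.996, which includes the tissue difference, and after subtracting tissue means it was 0.897 to 0.972. By the latter measure, Ciita was at 0.72 (Cd74) to 0.76 (H2-Eb1) with these 4 genes, and H2-DMa was at 0.76 with H2-DMb1. The pairs of H2-DMa or H2-DMb1 with Ciita, Cd74 or a chain were lower, at -0.05 to 0.42. They include eWAT HSD replicate 2 and liver CON replicate 1. There the ratio of H2-DMb1 to H2-Ab1 was the highest of its tissue, at 0.390 and 0.662. The correlations were not computed without these libraries. In liver and muscle, H2-DMa and H2-DMb1 rested on 7 to 45 fragments per library. Cd74 made up 39.5% to 45.1% of the summed FPKM of the 7 genes in eWAT and 36.7% to 46.8% in muscle. In liver its share was 21.8% to 37.0%, lowest in CON replicate 1. Ciita relative to H2-Ab1 was 0.011 to 0.015 in eWAT, 0.025 to 0.039 in muscle and 0.012 to 0.053 in liver. Points of these measures share libraries, so they are given as descriptions.

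The other genes of the pathway comprised 31 genes in 5 lists, of which 19 were tested in liver, 28 in eWAT and 21 in muscle, and none was called for diet in any tissue. In comparison, 0.323% of all genes were called in muscle and 0% in liver and eWAT. At an unadjusted p under 0.05 they were 0 of 19, 5 of 28 and 5 of 21, compared with 5.74%, 16.7% and 16.3% of all genes. Of the endosomal proteases and the reductase Ifi30, all 6 had negative fold changes in eWAT, as had 40.9% of all genes, and 4 had an unadjusted p under 0.05, where 7.55% of all genes were lower at that level. Their summed FPKM was 677 to 691 in CON and 376 to 492 in HSD eWAT. Ctss, cathepsin S, which trims Cd74, was at 60.4 ± 2.32 (SD, n = 3) FPKM in CON and 34.4 ± 9.59 (SD, n = 3) in HSD eWAT (log2 fold change -0.84, SE 0.20, adjusted p = 0.159), and Ctsd, the aspartic protease cathepsin D, at 172 ± 9.58 and 97.7 ± 7.22 (-0.82, SE 0.12, 0.114). In muscle the sum of this list overlapped between diets. There 4 of the 6 had negative and 2 positive fold changes, where 60.8% of all genes had negative ones. There Ctss had a log2 fold change of -1.12 (SE 0.36, adjusted p = 0.173) and Lgmn, the asparaginyl protease legumain, one of -0.53 (SE 0.16, adjusted p = 0.157). The other way, Ctsl was at 15.0 ± 0.35 (SD, n = 3) FPKM in CON and 18.7 ± 2.96 in HSD muscle (0.30, SE 0.13, adjusted p = 0.303) and Ctsd at 78.3 ± 1.46 and 88.7 ± 9.61 (0.17, SE 0.12, 0.503). Every HSD library was above every CON library for both, as for 6.72% of all genes.

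Of the factors that bind class II promoters, all 7 were tested in each tissue and none was called. Rfx5, the DNA-binding subunit of RFX, was at 1.37 ± 0.15 (SD, n = 3) FPKM in CON and 1.16 ± 0.14 in HSD muscle, and Rfxank, its partner, had the largest fold change of the list there (-0.39, SE 0.16, adjusted p = 0.267). In eWAT, Rfx5 was at 2.04 ± 0.14 and 2.90 ± 0.94 FPKM (log2 fold change 0.39, SE 0.21, adjusted p = 0.394), and Nfyc, a subunit of NF-Y, had a fold change of 0.23 (SE 0.14, adjusted p = 0.442). Of the interferon gamma pathway, 2 genes tested in eWAT had positive and 5 negative fold changes (median -0.04). In muscle 2 were positive and 4 negative (median -0.07). The receptor kinases Jak1 and Jak2 had log2 fold changes of -0.19 in muscle and 0.33 in eWAT, respectively. Of costimulation and turnover, Cd274, the ligand of PD-1, had the largest eWAT fold change (-0.86, SE 0.49, adjusted p = 0.413), and Marchf1, a ubiquitin ligase that removes class II from the surface, one of -0.54 (SE 0.30, adjusted p = 0.396). The H2-O chains H2-Oa and H2-Ob were below 1 FPKM in all 18 libraries. H2-DMb2 was at 29.7 FPKM in eWAT HSD replicate 2 and at 1.31 to 5.39 FPKM in the other eWAT libraries.

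The genes whose pattern over the 18 libraries was most like the mean of the 7 genes were Shisa5 (Pearson's r = 0.988), Gltp (0.987), Rtn1 (0.986), Limk1 (0.986) and Ly6h (0.986), of 13067 genes on log2(FPKM + 0.5). These values include the difference between tissues. Of markers of antigen-presenting cells, Adgre1 had an r of 0.961 (rank 420), Csf1r 0.959 (rank 467) and Itgax 0.945 (rank 868). After subtracting tissue means, the first genes were Bgn (0.887), Ube2l6 (0.874), Ptpa (0.866), Naaa (0.853) and Gltp (0.849), whereas Adgre1 was at 0.561 (rank 1086), Itgax at 0.549 (rank 1179) and Csf1r at 0.426 (rank 2480).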

How the data were processed

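RNA of bulk tissue was measured in 18 libraries. According to the authors' methods, the deposited FPKM were made with cuffdiff, from reads that cutadapt had trimmed and hisat2 had aligned to mm10. The submitters' processing notes also name HTSeq 0.9.1 and mm9, with no role given, so the tool that made the deposited values is not known. FPKM were whole fragments at the exon length of GENCODE M21 for 18323 of 18822 genes above 0. The tolerance was 0.01 fragments plus a part that grew with the count, so the check says little for genes with many fragments. Positions are from that annotation. The library totals were recovered from these fragments.

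Diet effects were fitted per tissue, and tissue contrasts and interactions over all 18 libraries, by limma (3.58.1, R 4.3.3; eBayes with trend) on log2(FPKM + 0.5) for genes with mean FPKM of at least 0.5. This scale understates changes of low genes. A call needed a Benjamini-Hochberg p under 0.05 and a log2 fold change of 1 or more in size. The fit was checked on simulated data. Each library is from 1 mouse, and some mice gave several tissues. Liver CON replicate 2, liver HSD replicate 3 and eWAT HSD replicate 3 are not named in the study's summary of read quality and are included here.

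The genes, lists and tests were chosen with earlier results of these data known. Genes named from a list are those called, or the 2 with the largest fold change in the tissue, or defining markers, some of which are not reported here, and the most similar genes are the first 5 by Pearson's r. Deviations from group means of libraries with the same replicate number correlated at 0.383, 0.177 and 0.184 in muscle, so the blocked fit is given there. Alternatives were median-ratio scaling, pseudocounts of 0.1 and 1, a filter at 1 FPKM or none, removal of mitochondrially encoded genes, the replicate block, mouse as a random effect, voom on fragments, only the libraries named in that summary, and each library left out. Adjusted p alone was added after the data were seen. Python 3.11.15 with pandas 2.3.3, numpy 2.4.6 and matplotlib 3.10.9 was used for the rest.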

Additional observations from a re-analysis of the deposited data

How the results depend on the processing

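The diet comparisons of the class II genes gave 0 calls in every alternative run that used the fold threshold, while counts over all genes moved. In muscle, 35 genes called became 7 without the filter, 54 with the replicate block, 66 with voom on fragments (where H2-Aa had an adjusted p of 0.0422), 97 at the adjusted p alone and 286 with block and adjusted p alone, where 4 class II genes passed. Leaving out a muscle library gave 10 (CON replicate 3), 13 (CON 1), 15 (HSD 2), 23 (HSD 3), 30 (CON 2) and 61 (HSD 1). In eWAT leaving out a library gave 0 to 160 and in liver 0 to 1. The liver libraries named in the study's summary of read quality gave 35, with Cd74 at 1.00. For liver, H2-Ab1 turned to -0.063 under median-ratio scaling and to -0.22 without HSD replicate 2, and H2-Aa, H2-Ab1, H2-Eb1 and H2-DMa turned to -0.16, -0.32, -0.082 and -0.15 without mitochondrially encoded genes; without CON replicate 1, H2-Aa, H2-Ab1, H2-Eb1 and Cd74 turned to -0.28, -0.35, -0.22 and -0.19. With other liver libraries left out, they reached 0.48, 0.28, 0.52 and 0.87. For CON liver over muscle, H2-Aa, H2-Ab1 and H2-Eb1 turned to 0.15, 0.049 and 0.27 under median-ratio scaling, H2-Aa and H2-Eb1 to 0.090 and 0.21 without mitochondrially encoded genes and to 0.0079 and 0.13 without liver CON replicate 1, with lowest values of -0.75 and -0.60 when another library was left out. The causes were not tested.

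Class II genes called between liver and muscle were 1 in CON and 2 in HSD mice under median-ratio scaling, 1 in CON mice without mitochondrially encoded genes, 1 in each at the adjusted p alone and 0 to 1 with a CON library left out. Median-ratio scaling gave 5215, 5524 and 5067 genes for eWAT over liver in CON, over liver in HSD and over muscle in HSD mice. With eWAT over the other tissues, Ciita fell under the fold threshold with a pseudocount of 1 in 3 of 4 comparisons and without mitochondrially encoded genes in 1. Genes called for the difference of the diet effect were, for eWAT against liver, 43 under median-ratio scaling, 53 without mitochondrially encoded genes and 37 to 544 with a library left out. For eWAT against muscle they were 19 with a pseudocount of 1, 21 without the filter, 2 under median-ratio scaling, 3 with the replicate block and 0 to 145 with a library left out. For liver against muscle they were 5 with a pseudocount of 0.1, 4 without mitochondrially encoded genes and 1 to 59 with a library left out.

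Libraries with the same replicate number had correlations of mixed sign in liver (-0.473, 0.396 and -0.213) and eWAT (-0.197, 0.061 and 0.414). The block changed no call of a class II gene. Ciita in liver and H2-DMa in muscle rest on few fragments, so small differences of these genes were not detectable at this depth.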

Other observations

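Cd52, a leukocyte surface protein that epididymal epithelium is also known to make, was at 671 FPKM in eWAT HSD replicate 2. It was at 6.70 to 13.4 FPKM in the other eWAT libraries. H2-DMb2, the near copy of H2-DMb1, was also highest in this library (29.7 FPKM), and H2-DMb1 was the highest of its HSD group there (16.1 FPKM), whereas H2-Oa, H2-Ob and H2-Eb2 were below 1 FPKM in all 18 libraries. The relation of these values to the epididymal markers was not tested.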
